A study of Macaca mulatta with 13 samples.

Results

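The 9 genes described here encode enzymes of glycogen synthesis and breakdown, measured in male rhesus monkeys (Macaca mulatta) in the vastus lateralis, a thigh muscle of mixed fibre type. The members were PYGM, GYS1, GYG1, PHKA1, PHKB, PHKG1, GBE1, UGP2 and PGM1, and every probe set whose annotation gives 1 of these symbols alone was taken. This gave 12 probe sets of 7 genes, out of 24956 such probe sets of 14132 genes on the array. No probe set carried the symbol PYGM or GBE1, so muscle glycogen phosphorylase and the glycogen branching enzyme were not analysed here. The study compared 8 monkeys on a calorie-restricted (CR) diet, of 27 to 32 years, with 5 monkeys on the control diet, of 27 to 30 years. The study's design text gives 18.5 years of restriction in a sentence that names both groups, and this is read here as the duration of the CR diet. Both groups were old, so no young animals enter the comparison. Each animal gave 1 one-colour Affymetrix array, and ages are known per group only. The number of arrays limits the precision of every value below.

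Glycogen is the glucose store of the muscle fibre. Glycogenin (GYG1) primes a new particle by adding the first glucose units to itself. Phosphoglucomutase (PGM1) interconverts glucose 6-phosphate and glucose 1-phosphate, UGP2 turns glucose 1-phosphate into UDP-glucose, and glycogen synthase (GYS1) adds its glucose to the growing chain. For breakdown, phosphorylase kinase switches phosphorylase on in response to calcium and to adrenergic signals. The kinase is built from regulatory alpha and beta subunits (PHKA1 is the muscle alpha form, PHKB the beta subunit), a catalytic gamma subunit (PHKG1 is the muscle form) and calmodulin. It thus couples contraction to fuel release, and fast-twitch fibres rely on this route more than slow-twitch fibres do.

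Levels are log2 MAS5 signals, the one-array summary the authors deposited, with values below 1 set to 1. The probe sets of a gene are numbered from the brightest, so PHKB-1 is the brightest of PHKB. The probe sets tested were the brighter 50%. They held 8 of 8 annotated skeletal muscle genes and 9 of 9 annotated fast-twitch genes. Among the muscle genes CKM had a mean of 16.37 in CR and 16.08 in controls. Of the 8 muscle genes 5 were higher in CR and 3 lower. Their median difference was 0.13 (log2, CR minus control), or -0.05 without control replicate 4. The filter does not single out muscle. It also kept 7 of 7 adipocyte, 9 of 9 matrix, 9 of 9 macrophage and 8 of 9 endothelial genes. Control replicate 4 had the lowest mean correlation with the other arrays, 0.879, and it had the lowest summed signal of the muscle list (229700, against 286900 to 458600 in the other controls). In the same animal the summed signals of endothelial, adipocyte and matrix lists were the highest among controls. Values without it stand beside many of the diet differences below.

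Of the 12 probe sets, 10 passed the filter on dim probe sets and were tested, and they covered 6 genes. None of the 10 passed limma's moderated test between diets after Benjamini-Hochberg adjustment, each with an adjusted p of 0.999. Over the array 0.0% of the 26383 tested probe sets passed (adjusted p), so this 0 is what the whole table shows. At an unadjusted p under 0.05 in limma's test there was 1 of 10 member probe sets, PHKB-1, beside 2.43% of all. The difference was above 0 for 9 of 10, beside 48.1% of all tested probe sets, with a median of 0.24 for the members and -0.01 for all (log2, CR minus control). Without control replicate 4 the count was 6 of 10 beside 47.8%, and the median was 0.08. Diets overlapped for each of the 10, and 0.072% of all tested probe sets had diets that did not overlap.

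**Figure D1:**
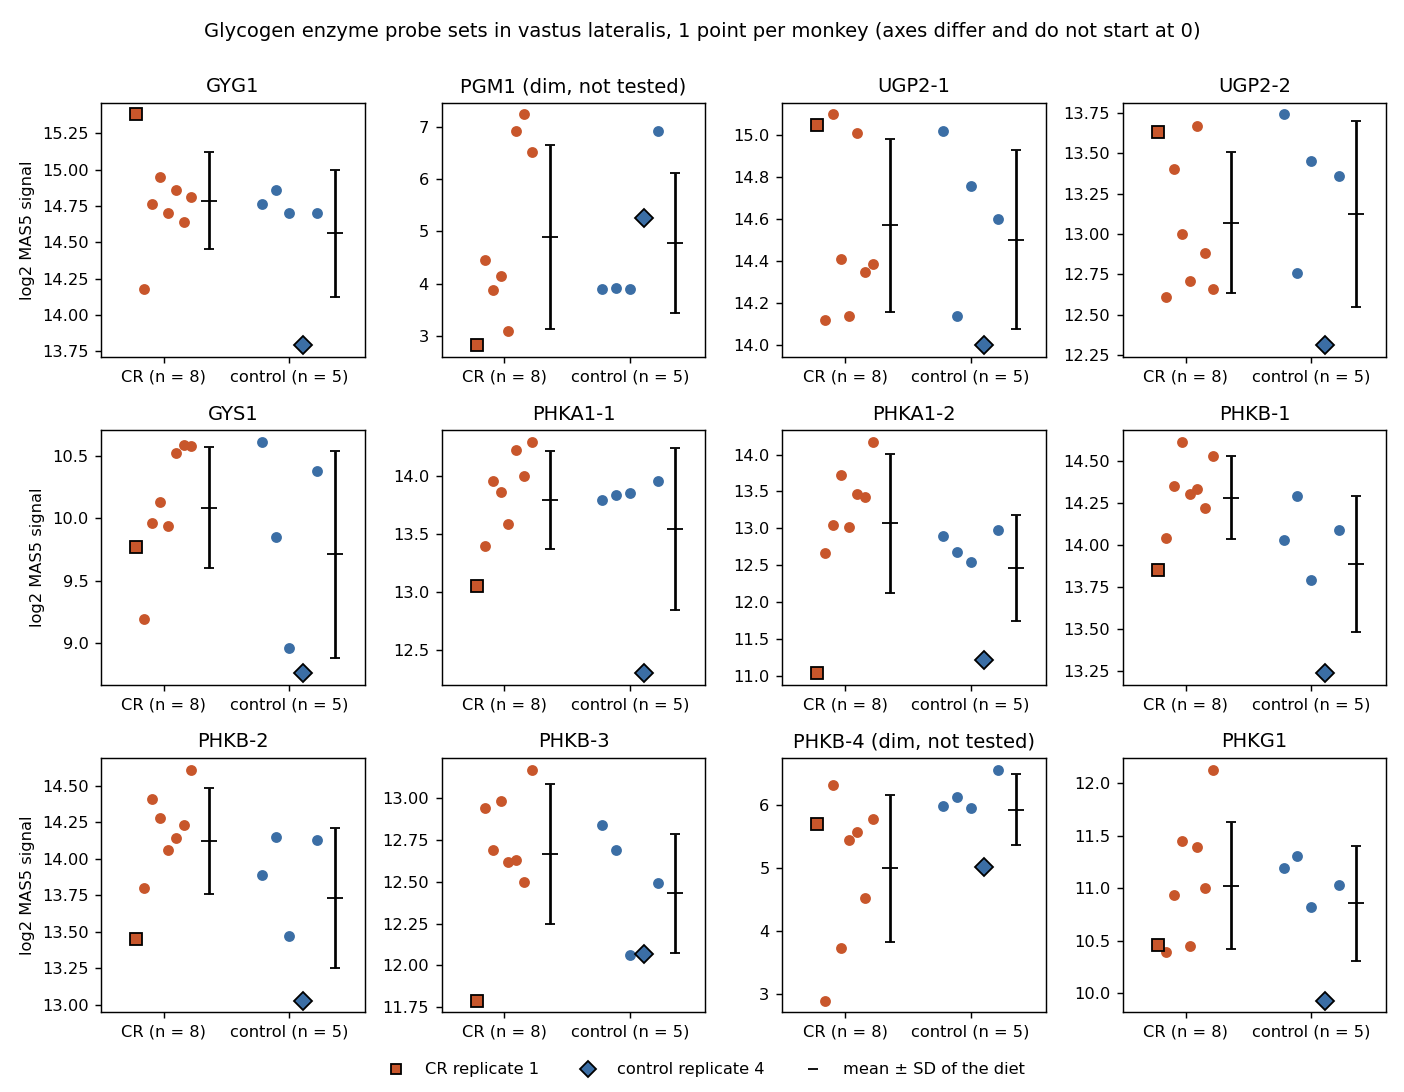
Log2 MAS5 signal (vertical axes, which differ between panels) of the 12 glycogen enzyme probe sets, 1 point per monkey, with 8 CR monkeys left of 5 controls and the mean ± SD beside each. Control replicate 4 (diamond) is the lowest of the 13 animals in 8 of 10 tested panels, beside 14.7% of all tested probe sets. CR replicate 1 (square) is high for GYG1 and low for PHKA1-2.

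GYG1, the glycogenin that primes the particle, had 1 probe set (MmuSTS.4515.1.S1_at). Its log2 signal in CR replicates 1 to 8 was 15.38, 14.18, 14.76, 14.95, 14.70, 14.86, 14.64 and 14.81. Controls 1 to 5 had 14.76, 14.86, 14.70, 13.79 and 14.70. The diets overlapped, with 3 of 8 CR monkeys above the highest control and 4 controls within a narrow band. The mean was 14.78 ± 0.33 in CR (SD, n = 8) and 14.56 ± 0.44 in controls (SD, n = 5). The difference was 0.23 ± 0.21 (SE, log2), and limma's adjusted p was 0.999. It was 0.03 without control replicate 4, the low control.

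UGP2, which makes the UDP-glucose that glycogen synthase uses, had a pair of probe sets. UGP2-1 (MmuSTS.4463.1.S1_at) gave 15.05, 14.12, 15.10, 14.41, 14.14, 15.01, 14.35 and 14.39 in CR replicates 1 to 8. In control replicates 1 to 5 it gave 15.02, 14.14, 14.76, 14.00 and 14.60. High and low animals occurred on both diets: CR replicates 1, 3 and 6 and control replicate 1 lay above 15, and the others at 14.76 or lower. The UGP2-1 difference was 0.07 (log2), with a 95% interval of -0.40 to 0.54 before adjustment, or 0.756-fold to 1.45-fold. UGP2-2 ranged from 12.61 to 13.67 in CR and from 12.31 to 13.74 in controls. Its difference was -0.05 ± 0.25 (SE), so the probe sets had opposite signs, both well inside their SE. The signs of both moved with single animals: without control replicate 4 the values were -0.06 for UGP2-1 and -0.26 for UGP2-2, and without control replicate 1 they were 0.19 and 0.10.

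PGM1, which links glycogen to glycolysis, had 1 dim probe set (MmugDNA.39336.1.S1_at) that did not pass the filter. Its log2 signal ran from 2.82 to 7.24 in CR, with a median of 4.30, and from 3.89 to 6.93 in controls, with a median of 3.91. The mean signal of 28.8 over all arrays lay below the 107 at which testing began. Without the filter its difference was 0.11 ± 0.84 (SE), and limma's adjusted p was 0.999. A mean level this low with so wide a spread gives no usable estimate of PGM1 on this array.

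GYS1, the muscle glycogen synthase, had 1 probe set. Its log2 signal in CR replicates 1 to 8 was 9.77, 9.19, 9.96, 10.13, 9.94, 10.52, 10.59 and 10.58. The values of controls 1 to 5 were 10.61, 9.85, 8.96, 8.76 and 10.38. Every CR value lay within the range of the controls, whose SD of 0.83 exceeded the 0.48 of the CR animals. The difference was 0.37 ± 0.32 (SE, log2), a ratio of 1.29, and limma's adjusted p was 0.999. Without control replicate 4 it was 0.13, and without control replicate 1, the highest control, it was 0.59.

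PHKA1, the muscle alpha subunit of phosphorylase kinase, had a pair of probe sets. PHKA1-1 (MmugDNA.11534.1.S1_at) gave 13.05, 13.39, 13.95, 13.86, 13.58, 14.22, 14.00 and 14.29 in CR replicates 1 to 8. Control replicates 1 to 5 gave 13.79, 13.83, 13.85, 12.30 and 13.95. Control replicate 4 stood alone at the bottom, while the other controls spanned less than the CR animals did. The PHKA1-1 difference was 0.25 ± 0.27 (SE, log2), and -0.06 without control replicate 4.

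PHKA1-2 (MmugDNA.1656.1.S1_at) gave 11.04, 12.66, 13.04, 13.72, 13.02, 13.47, 13.43 and 14.17 in CR replicates 1 to 8. The controls, in the same order of replicates, gave 12.90, 12.68, 12.55, 11.22 and 12.98. Here 6 of 8 CR monkeys lay above the highest control, and CR replicate 1 lay below the lowest. The PHKA1-2 difference was the largest among the 10 tested probe sets, 0.60 ± 0.42 (SE, log2), a ratio of 1.52 with a 95% interval of 0.823 to 2.81 before adjustment. Limma's adjusted p was 0.999. Leaving out control replicate 4 gave 0.29, and leaving out CR replicate 1 gave 0.89. With both animals left out, an alternative chosen after seeing the data, it was 0.58 ± 0.24 (SE), with an adjusted p of 0.9998 from limma.

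PHKB, the beta subunit, had 4 probe sets, of which 3 were tested. PHKB-1 (MmugDNA.1675.1.S1_at) gave 13.85, 14.04, 14.35, 14.61, 14.30, 14.33, 14.22 and 14.53 in CR replicates 1 to 8. In control replicates 1 to 5 it gave 14.03, 14.29, 13.79, 13.24 and 14.09. For PHKB-1, 5 of 8 CR monkeys lay above the highest control, and 7 of 8 lay above the control mean. The mean was 14.28 ± 0.25 in CR (SD, n = 8) and 13.89 ± 0.40 in controls (SD, n = 5). The PHKB-1 difference was 0.39 ± 0.18 (SE, log2), a ratio of 1.31, with an adjusted p of 0.999 from limma. An exact permutation test of the mean difference (two-sided, every split of the 13 animals) gave p = 0.0396 for PHKB-1, and 0.999 after adjustment over all tested probe sets. Without control replicate 4 the difference was 0.23 ± 0.16 (SE).

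The other PHKB probe sets that were tested pointed the same way with smaller or equal values. PHKB-2 (MmugDNA.41168.1.S1_at) gave 13.45, 13.80, 14.41, 14.28, 14.06, 14.14, 14.23 and 14.61 in CR replicates 1 to 8, and 13.89, 14.15, 13.47, 13.03 and 14.13 in control replicates 1 to 5. PHKB-2 was above the highest control in 4 of 8 CR monkeys and differed by 0.39 ± 0.22 (SE, log2), or 0.21 without control replicate 4. PHKB-3 (MmugDNA.29466.1.S1_at) ranged from 11.79 to 13.17 in CR and from 12.06 to 12.84 in controls, and differed by 0.24 ± 0.21 (SE), or 0.15 without control replicate 4. Neither passed (adjusted p = 0.999 from limma). The dim PHKB-4 (MmugDNA.37734.1.S1_at), with a mean signal of 40.9, was not tested. It ran from 2.90 to 6.32 in CR and from 5.01 to 6.56 in controls, and without the filter it differed by -0.94 ± 0.61 (SE), opposite in sign to the 3 bright probe sets. For PHKB-1, PHKB-2 and PHKB-3 the difference stayed above 0 with each animal left out in turn.

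PHKG1, the catalytic subunit of the muscle form, had 1 probe set (MmugDNA.20955.1.S1_at). Its log2 signal in CR replicates 1 to 8 was 10.46, 10.39, 10.94, 11.45, 10.45, 11.39, 11.00 and 12.13. Controls 1 to 5 were at 11.19, 11.31, 10.82, 9.93 and 11.03. CR replicate 8 was the highest of all and control replicate 4 the lowest, with the remaining animals of both diets mixed. The PHKG1 difference was 0.17 ± 0.30 (SE, log2), with an adjusted p of 0.999 from limma. Leaving out control replicate 4 gave -0.06, and leaving out CR replicate 8 gave 0.01.

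**Figure D2:**
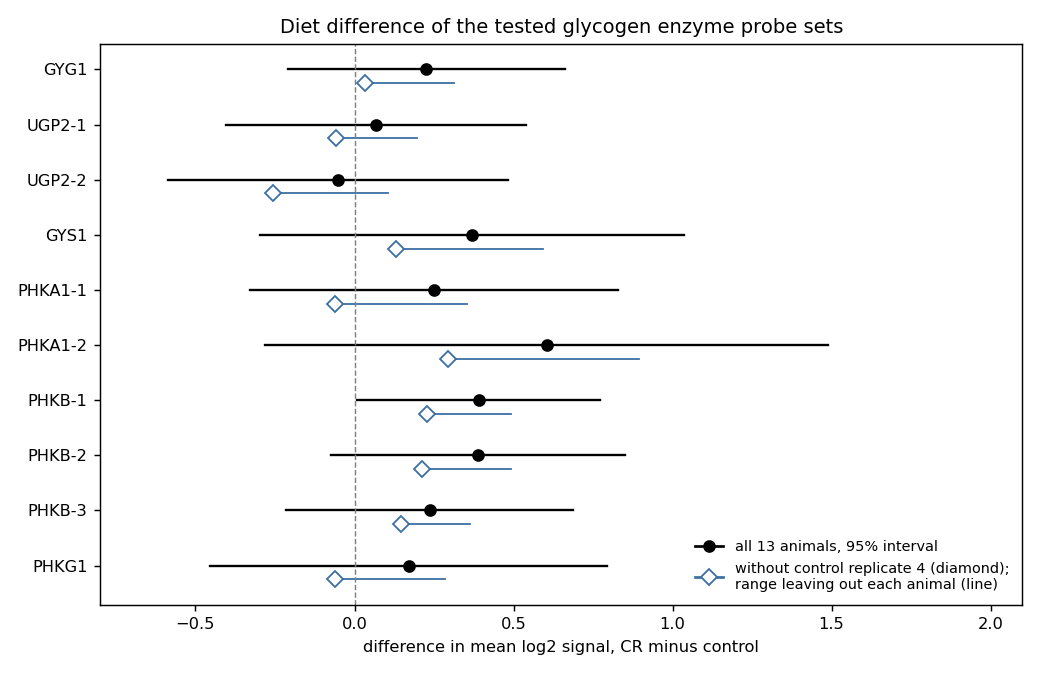
Difference in mean log2 signal, CR minus control (horizontal axis), of the 10 tested glycogen enzyme probe sets, with 95% intervals before adjustment in black, and in blue the range when each animal is left out, the diamond marking the value without control replicate 4. The point estimates lie from -0.05 for UGP2-2 to 0.60 for PHKA1-2, and without control replicate 4 the values of 4 probe sets lie below 0.

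The size of the uncertainty differed between genes. The median half-width of the 95% interval, before adjustment, was 0.50 on the log2 scale over the 10 tested member probe sets and 0.55 over all tested probe sets. For UGP2-1 and GYG1 the intervals reached 1.45-fold and 1.58-fold at their upper ends. For GYS1 the upper end was 2.05-fold. Differences within each interval are compatible with these arrays, and the smallest detectable difference was not computed.

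Where a gene had several tested probe sets, the diet differences they gave were compared within animals in 4 pairs with the brightest probe set, by exact permutation (two-sided). None passed. The gap was -0.35 for PHKA1-1 minus PHKA1-2 (p = 0.227, adjusted p = 0.454 in the exact test), with an SD of the within-animal value of 0.59 in CR and 0.16 in controls. It was 0.12 for UGP2-1 minus UGP2-2 (p = 0.210, adjusted p = 0.454, exact test). Without CR replicate 1 the PHKA1 gap was -0.54, with p = 0.00505 and adjusted p = 0.0202 in the exact test, so 1 animal decided this call. For PHKB the gaps were 0.0032 against PHKB-2 and 0.15 against PHKB-3.

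The members also varied between animals of the same diet, and part of this variation was shared among GYS1 and the kinase subunits. To describe it, each value was taken as its deviation from its diet mean, and the brightest tested probe sets of the 6 genes were correlated over the 13 animals in 15 pairs, with permutation tests of 100000 resamples. The points share an array scaling, and control replicate 4 is low throughout. By Pearson's r, 7 of 15 pairs passed after adjustment over the 15, and by Spearman's rho 5 did. The share of all gene pairs on the array that would pass was not computed, so these counts are not shown to be particular to the members. High r was common: among 9710 genes outside the lists, the 95th percentile of r with the mean z score of the members was 0.78. The subunits of phosphorylase kinase stood highest. PHKA1-1 with PHKG1 gave r = 0.84 (permutation p = 3e-05, adjusted 0.00045) and rho = 0.77 (p = 0.0026, adjusted 0.0195), and r = 0.81 without the 2 animals farthest from the median. PHKB-1 with PHKG1 gave r = 0.83 (permutation p = 0.00028, adjusted 0.0019) and rho = 0.86 (p = 0.00029, adjusted 0.00435), and r = 0.73 without the 2 farthest animals. PHKA1-1 with PHKB-1 gave r = 0.85 (permutation p = 0.00038, adjusted 0.0019) and rho = 0.60 (p = 0.0314, adjusted 0.0785), and r = 0.50 without the 2 farthest.

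GYS1 deviated with the kinase subunits. Its r was 0.70 with PHKA1-1, 0.68 with PHKB-1 and 0.72 with PHKG1 (permutation p = 0.00574, 0.0105 and 0.00571, each adjusted p at most 0.0262). The rho values were 0.67, 0.66 and 0.71 (permutation p = 0.0147, 0.0160 and 0.00801, adjusted p = 0.0479, 0.0479 and 0.0401). Without the 2 farthest animals r was 0.47, 0.44 and 0.53. Without control replicate 4 alone, the r of the 6 pairs among GYS1 and the kinase subunits was 0.52 at the lowest and 0.80 at the highest.

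Among the 9 pairs that include GYG1 or UGP2-1, r lay between 0.076 and 0.61. GYG1 with UGP2-1 was the pair that passed by Pearson's r (r = 0.61, permutation p = 0.0213, adjusted 0.0456), while rho was 0.57 (p = 0.0460, adjusted 0.0986). Its r was 0.36 without the 2 animals farthest by GYG1, 0.50 without control replicate 4 and 0.64 within CR. The r of GYG1 without the same 2 animals was -0.22 with GYS1, -0.52 with PHKA1-1, -0.30 with PHKB-1 and -0.13 with PHKG1. Over all 13 animals the r of GYG1 with each of these genes was positive. UGP2-1 with PHKB-1 gave r = 0.076 (permutation p = 0.805, adjusted 0.805) and rho = 0.19 (p = 0.531, adjusted 0.531), and r = -0.32 without control replicate 4. CR replicate 1 had the highest GYG1 signal of the 13 and a high UGP2-1, with the lowest PHKA1-2 and PHKB-3. Whether the correlations of these pairs differ from those of the kinase subunits was not tested.

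**Figure D3:**
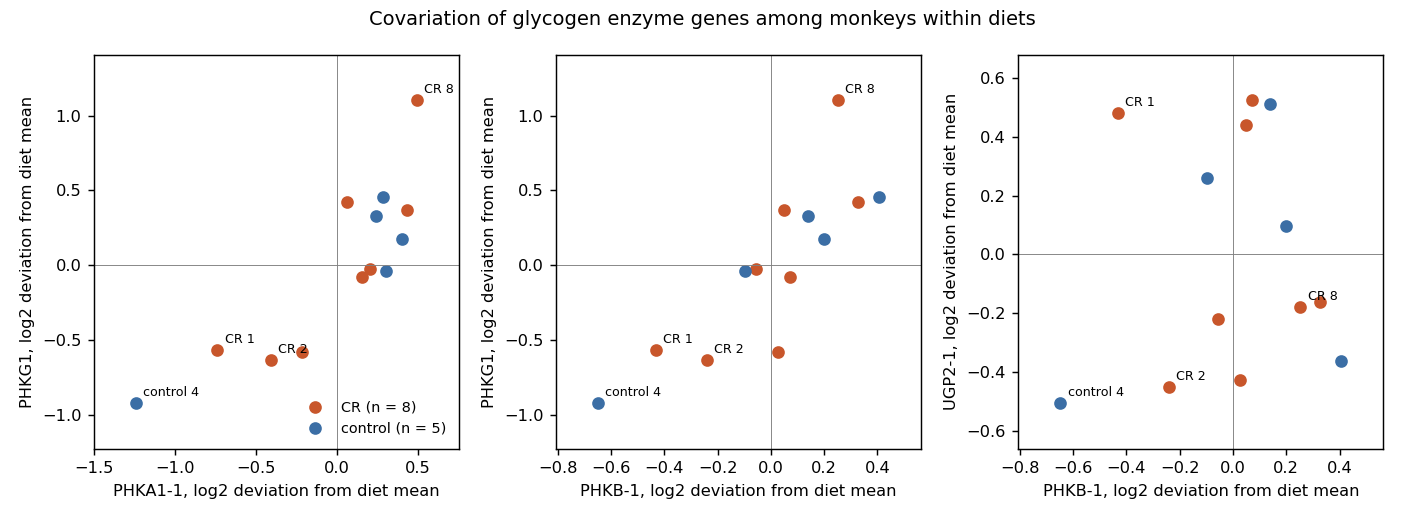
Deviation of each monkey from its diet mean on the log2 scale (both axes) for PHKA1-1 and PHKG1 (r = 0.84), PHKB-1 and PHKG1 (r = 0.83) and PHKB-1 and UGP2-1 (r = 0.076), with 8 CR and 5 control monkeys. Control replicate 4 lies at the lower left of each panel, and CR replicate 1 lies low for the kinase subunits and high for UGP2-1.

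Tested probe sets annotated to the same gene were correlated in the same way, which leaves out the dim PHKB-4. The r was 0.95 between the UGP2 probe sets (permutation p = 2e-05) and 0.86 between those of PHKA1 (p = 0.00096). Among those of PHKB it was 0.93, 0.73 and 0.75. The rho values were 0.92 for UGP2, 0.76 for PHKA1, and 0.93, 0.74 and 0.69 for PHKB. Adjusted over the 5 pairs, each permutation p was at most 0.00507 for r and 0.0111 for rho.

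Since glycogen use differs between fibre types, the same deviations were set against scores of fast-twitch and slow-twitch sarcomere and calcium genes, the mean z score of 9 genes each, in 12 relations chosen after the values were seen. With the fast-twitch score, r was 0.81 for PHKA1-1, 0.81 for PHKB-1, 0.76 for GYS1 and 0.72 for PHKG1 (permutation p = 0.00182, 0.00134, 0.00253 and 0.00455, adjusted p at most 0.0137). Spearman's rho was 0.66, 0.70, 0.73 and 0.65, with adjusted p = 0.0555 for each, above the threshold. Without the 2 farthest animals r was 0.62, 0.60, 0.83 and 0.59. With the same score r was 0.15 for GYG1 and 0.076 for UGP2-1 (permutation p = 0.628 and 0.805, adjusted 0.758 and 0.805). Their rho values were 0.082 and 0.32 (p = 0.792 and 0.289), and r without the 2 farthest was 0.52 and 0.28. Leaving out control replicate 4, also chosen after the values were seen, gave 0.83 for PHKA1-1, 0.78 for PHKB-1, 0.71 for GYS1, 0.64 for PHKG1, -0.22 for GYG1 and -0.12 for UGP2-1. The share of all tested genes that reach such r with the fast-twitch score was not computed. Whether these r are particular to the members or to the fast-twitch list was not tested.

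With the slow-twitch score none of the 6 genes passed, and r ran from -0.41 for PHKG1 to 0.35 for GYG1 (adjusted permutation p = 0.404 and 0.487), with rho from -0.24 to 0.26 (lowest adjusted permutation p = 0.614). These values turned on single animals: without the 2 farthest animals r was positive for all 6 genes, from 0.16 for PHKG1 to 0.64 for GYG1, while without control replicate 4 it ran from -0.74 for PHKG1 to 0.16 for GYG1. The fibre lists differed widely between animals: the summed slow-twitch signal ran from 24280 in CR replicate 8 to 538500 in CR replicate 1 within CR, and from 107100 to 462900 in controls. CR replicate 8 had the highest PHKA1-1, PHKA1-2, PHKB-2, PHKB-3 and PHKG1 of the 13 animals. CR replicate 1 had the lowest summed fast-twitch signal in CR, 455400, against up to 871400 in CR replicate 8. None of the 9 fast-twitch and none of the 9 slow-twitch genes passed limma's adjusted test between diets. The median differences were 0.21 and -0.52 (log2), and 0.05 and -0.99 without control replicate 4. In whole muscle, fewer fibres of a type and less RNA per fibre cannot be told apart. The part of fibre makeup in the member values was not tested.

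**Figure D4:**
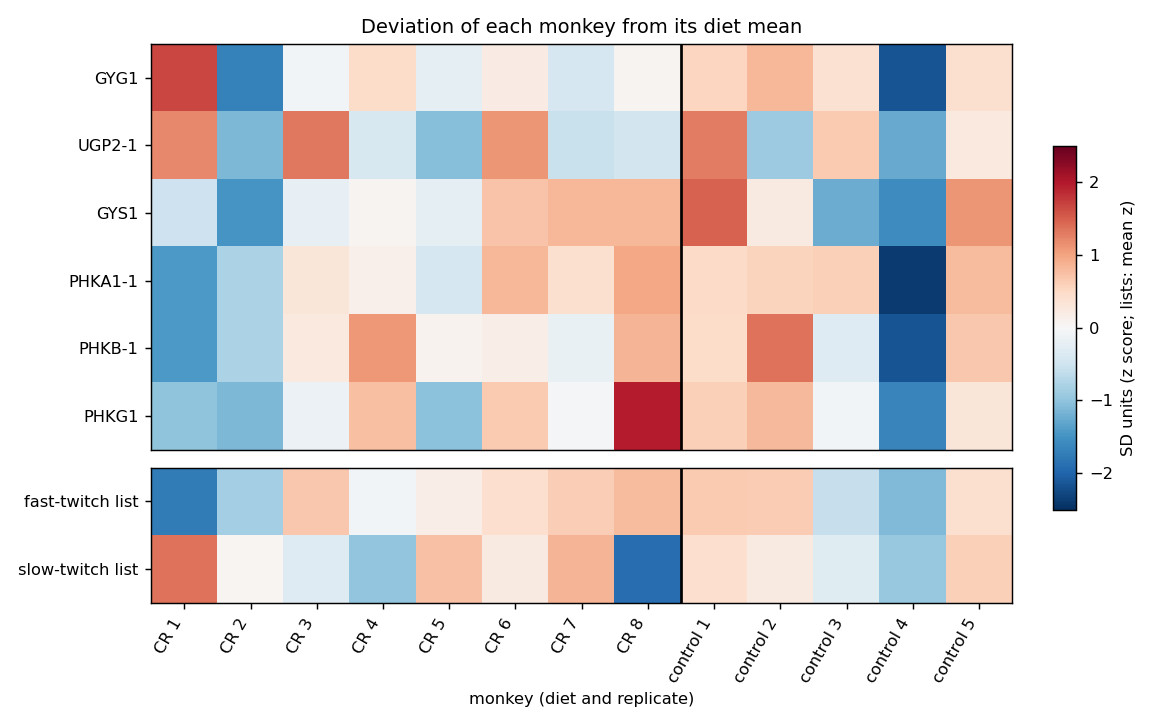
Deviation of each monkey from its diet mean, in SD units, for the brightest tested probe set of the 6 glycogen enzyme genes (upper block) and as the mean z score of the fast-twitch and slow-twitch lists (lower block), with 8 CR monkeys left of 5 controls. Control replicate 4 is low in all 8 rows, while CR replicate 1 is high for GYG1, UGP2-1 and the slow-twitch list and low for the kinase subunits and the fast-twitch list.

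Control replicate 4 also stood apart in signals of other cell types. The summed endothelial signal was 4811 to 11330 in CR, 19230 in control replicate 4 and 6923 to 12780 in the other controls. The summed matrix signal was 75060 to 128000 in CR and 183400 in control replicate 4. The adipocyte sum was 68520 in CR replicate 2, the CR monkey with the lowest summed signal of the members, and 62510 in control replicate 4. The macrophage sum was 61130 to 108100 in CR, 48440 in control replicate 4 and 63450 to 94390 in the other controls. It was mostly 1 probe set, ITGAM, with a mean log2 signal of 16.33 in CR and 16.01 in controls. The other macrophage genes had CR means of 10.54 or lower. The mean z score of the macrophage list, which weighs its genes equally, was 0.37 in control replicate 4. The macrophage sum thus does not show that this animal had the least macrophage signal. The median diet difference was -0.42 over 8 tested endothelial genes (0 of 8 higher in CR), -0.20 over 7 adipocyte genes (2 of 7 higher), -0.06 over 9 matrix genes (3 of 9 higher) and -0.10 over 9 macrophage genes (4 of 9 higher). None of them passed. These medians were -0.21, 0.10, 0.12 and 0.02 without control replicate 4, so all but the endothelial one changed sign. As a measure of RNA quality, the log2 ratio of 3-prime to 5-prime signal was 0.48 to 0.91 for GAPDH in CR and 0.73 in control replicate 4, and 1.06 to 2.08 for actin in CR and 2.41 in control replicate 4. In the other controls the ratio was 0.30 to 0.76 for GAPDH and 1.47 to 1.68 for actin. With these ratios as covariates the member median was 0.24, GYS1 differed by 0.14 and UGP2-1 by -0.07. The part of the other cells in the member values was not tested.

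As a description, the genes outside all lists whose animal-to-animal pattern was most like the mean z score of the 6 members were sought among 9710 genes over the 13 arrays. The 5 most alike were PSMB2, a proteasome subunit (r = 0.97), CUEDC2 (0.97), C1H1orf21 (0.97), HSP90B1, a chaperone of the endoplasmic reticulum (0.96), and RILPL1 (0.96). They were picked for high r, so no p is given. The 95th percentile of r over all genes searched was 0.78, and without the 2 animals farthest from the median r lay between 0.85 and 0.93 for the 5. Their diet differences were 0.07 to 0.32 (log2), or -0.13 to 0.07 without control replicate 4, and none passed limma's test (adjusted p = 0.999).

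Regulators of glycogen outside the members were described from 3 lists. Of the 24 genes tested in the 3 lists, 0 passed limma's adjusted test in either direction, beside 0.0% of all tested genes, and 0 had an unadjusted p under 0.05 beside 1.82%. The difference was above 0 for 15 of 24, beside 49.8% of all tested genes. It was above 0 for 13 of 24 without control replicate 4, and 8 of the 24 changed sign.

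The kinases and calmodulin upstream of glycogen synthase and phosphorylase kinase had 13 tested genes, 9 higher in CR, with a median difference of 0.10, or 0.0071 without control replicate 4. PRKAG3, the gamma subunit of AMP-activated protein kinase found mainly in fast-twitch muscle, and in pigs a gene whose variants alter muscle glycogen, gave 11.58, 13.04, 13.90, 15.10, 13.74, 14.19, 14.41 and 14.80 in CR replicates 1 to 8. The PRKAG3 values of control replicates 1 to 5 were 12.89, 13.59, 13.25, 12.57 and 12.81. For PRKAG3, 6 of 8 CR monkeys lay above the highest control, and CR replicate 1 lay below the lowest, the same arrangement as for PHKA1-2. The PRKAG3 difference was 0.82 ± 0.44 (SE, log2), a ratio of 1.77, with an adjusted p of 0.999 from limma, and it ran from 0.65 to 1.15 with each animal left out. PRKAR1A, a regulatory subunit of protein kinase A, differed by 0.40 ± 0.21 (SE), and its other probe set by -0.17. Leaving out control replicate 4 gave 0.25 for the first. PRKAB1, a beta subunit of AMP-activated protein kinase, differed by -0.22 ± 0.18 (SE), or -0.10 without that animal, and its other probe set by 0.13. Calmodulin was represented by CALM3, at 0.22 ± 0.29 (SE), and at -0.0019 without control replicate 4. The other CALM3 probe set differed by 0.49 over all animals.

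The phosphatase list, protein phosphatase 1 with its glycogen-targeting subunits and the laforin and malin genes, had 6 tested genes, 4 higher in CR, with a median of 0.06, or -0.01 without control replicate 4. PPP1R3F, a targeting subunit, had a mean log2 signal of 9.77 ± 0.31 in CR (SD, n = 8) and 9.36 ± 0.36 in controls (SD, n = 5). Here 6 of 8 CR monkeys lay above the highest control. The PPP1R3F difference was 0.41 ± 0.19 (SE, log2) with an adjusted p of 0.999 from limma, while its other probe set gave -0.09. PPP1R3A, the muscle targeting subunit that brings the phosphatase to glycogen, differed by 0.28 ± 0.31 (SE), and by 0.10 without control replicate 4. PPP1R3D, another targeting subunit, differed by -0.14 ± 0.21 (SE), and by 0.0080 without it. The other PPP1R3D probe set differed by -0.25 over all animals.

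The list of other isoforms and further enzymes had 5 tested genes, 2 higher in CR, with a median of -0.04, or 0.05 without control replicate 4. PHKA2, the alpha subunit of the liver form of the kinase, differed by -0.28 ± 0.29 (SE, log2), and by -0.06 without CR replicate 3, which at 6.80 lay below the 8.25 to 8.95 of the other CR monkeys. PGM2L1, which makes glucose 1,6-bisphosphate, the cofactor of phosphoglucomutase, differed by 0.21 ± 0.27 (SE), and by 0.05 without control replicate 4. The other PGM2L1 probe set differed by -0.02 over all animals. PYGL, the liver phosphorylase, ran from 7.89 to 10.19 in CR and from 7.54 to 11.72 in controls, with control replicate 4 the highest of all. The difference was -0.28 ± 0.59 (SE) for this probe set, the brightest of PYGL, and 0.37 without that animal. The 5 other tested PYGL probe sets differed by -1.18 to 0.095.

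**Figure D5:**
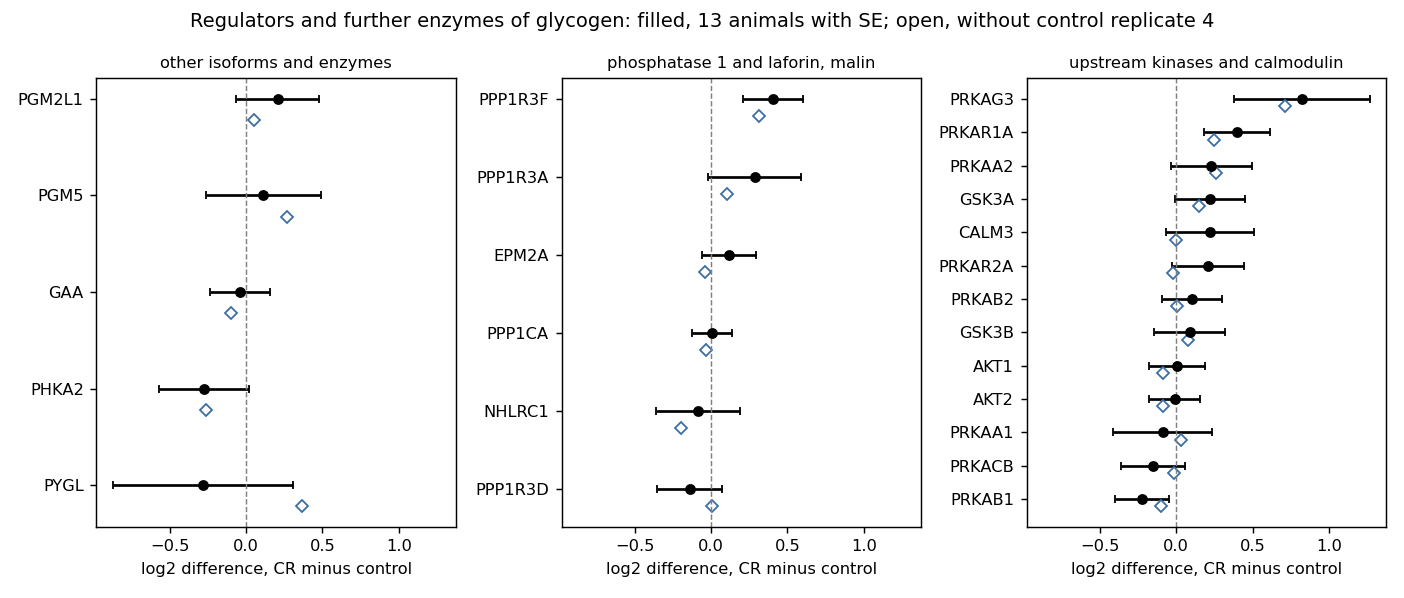
Difference in mean log2 signal, CR minus control (horizontal axes), of the 24 tested genes in 3 lists of glycogen regulators and further enzymes, with filled points and SE bars for all 13 animals and open diamonds without control replicate 4. PRKAG3 at 0.82 has the largest difference, and 8 of the 24 genes change sign without that animal: PYGL, PPP1R3D, PPP1CA, EPM2A, PRKAA1, PRKAR2A, CALM3 and AKT1.

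The glycolytic enzymes, which take up the glucose 6-phosphate that glycogen yields, were the nearest list for comparison. Of 13 tested genes 0 passed, 8 were higher in CR, and the median difference was 0.24, next to 0.24 over the 6 member genes by brightest probe set, where 6 of 6 were higher. Without control replicate 4 the medians were 0.10 for the glycolytic genes and -0.01 for the members. GAPDH differed by 0.33 ± 0.22 (SE, log2), ALDOA, the muscle aldolase, by 0.29 ± 0.21, and HK1, a hexokinase, by 0.25 ± 0.18. They differed by 0.15, 0.17 and 0.10 without control replicate 4. The summed glycolytic signal was 314100 to 636100 in CR and 267600 in control replicate 4, the lowest of the 13. The sum over the members was 65850 to 106600 in CR, 46640 in control replicate 4 and 85580 to 95520 in the other controls.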

How the data were processed

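Biotin-labelled cRNA from Trizol-extracted muscle RNA was hybridised to Affymetrix arrays, as the labels' protocols state. Intensity values on a linear scale were deposited, summarised by the authors with MAS5 per the submitters' processing notes. Each array's 2% trimmed mean was 500, so a change of most transcripts together is not visible. Signals were floored at 1 (137 values) and log2 transformed. The dimmer 50% of 52766 non-control probe sets by mean log2 were left out, with 26383 tested.

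Diets were compared by limma 3.58.1 (lmFit, then eBayes with a variance trend; R 4.3.3), two-sided, at a Benjamini-Hochberg adjusted p under 0.05. Probe sets were named from the platform annotation: 24969 had 1 symbol, 361 several and 27535 none. The members and gene lists were chosen with earlier results of these data known. Named genes were the members, the 3 with the lowest p in each glycogen or glycolytic list, and the 5 most alike; CALM3 and CKM were added after their values were seen. The 12 fibre-score relations and the joint omission of control replicate 4 and CR replicate 1 were also chosen after seeing the data. Tests were checked on simulated data. Same-numbered animals of the diets did not deviate together (r from -0.20 to 0.02 over 5 pairs). This check cannot exclude a pairing by design, and the main fit treated the animals as unpaired. No batch or date is given in the sources used here. Figures used matplotlib 3.10.9.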

Additional observations from a re-analysis of the deposited data

Results flagged for a closer look

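Animals that stood apart within their diet were looked for among the 12 member probe sets, by Dixon's 95% limit on the gap to the nearest animal. This gave 3 results in 24 groups, where chance gives about 1 in 20, or 1.2. The groups share the same arrays and include several probe sets of 1 gene, so they are not independent trials. All 3 results were control replicate 4 at the bottom of its diet. Its log2 signal was 13.79 for GYG1, where the next control had 14.70. It was 12.30 for PHKA1-1, with the next control at 13.79, and 11.22 for PHKA1-2, with the next at 12.55. For the whole table this animal was the lowest of the 5 controls in 26.6% of tested probe sets, and among the member probe sets in 9 of 10.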

How the results depend on the processing

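No member probe set passed under any alternative: quantile or median normalization, an offset of 16, no filter, the brighter 25%, no variance trend, array weights, RNA quality covariates, an exact permutation test, means over a gene's probe sets, the replicate block, and each animal left out (lowest adjusted p = 0.903 in limma). Over all probe sets, 0 to 1 passed with 1 animal left out (1 without control replicate 1 or control replicate 5). With 1 animal left out, the median member difference ran from 0.08 to 0.36 and the count above 0 from 6 to 10. With the replicate block they were 0.13 and 8 of 10, and PHKG1 turned to -0.119, GYS1 was 0.083 and PHKA1-1 0.022, with no call changed. The median was 0.154 with array weights. Without control replicate 4 the difference was -0.0606 for PHKA1-1, -0.0611 for PHKG1 and -0.0597 for UGP2-1. Without it and CR replicate 1 together, GYG1 was -0.0530 and UGP2-1 -0.128. UGP2-1 was -0.0217 with array weights and -0.0697 with RNA quality covariates, which gave 0.14 for GYS1. With 1 animal left out, UGP2-1 ran from -0.0597 to 0.195, UGP2-2 from -0.256 to 0.104, PHKA1-1 up to 0.355, PHKG1 up to 0.283, and the gap between PHKB-1 and PHKB-2 from -0.0457 to 0.0443. The cause of these turns was not tested. PGM1 and PHKB-4 are limited by low signal.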
